A study of Mus musculus with 10 samples.

Results

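The TAM receptors Tyro3, Axl and Mertk, the molecules that bridge them or other receptors to dying cells, and the annexin A1 pathway were followed in whole mouse tumours of high and low burden. The 8 genes were chosen by symbol (Mertk, Axl, Tyro3, Gas6, Pros1, Mfge8, Anxa1 and Fpr2). All 8 were present among the 18223 genes of the deposited table, and all 8 passed the filter on low counts that left 13470 genes for testing. The tumours were subcutaneous growths of MC38 (cells of a mouse colon adenocarcinoma), and the 10 RNA-seq libraries form 2 groups of 5. High tumour burden (HTB) carries 2000000 in its treatment label and low tumour burden (LTB) 500000, each with 14 days, taken here as how many MC38 cells were given and how long the tumours grew. No label gives a genotype, strain, age or measured tumour size, both groups received the same cell line and no other agent, and separate animals are not named for the libraries, so p-values measure only the spread among libraries, which may be technical. A library mixes RNA of tumour cells, immune cells and stroma, so fewer cells of a type and less RNA per cell cannot be told apart.

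Efferocytosis is the removal of dying cells by phagocytes, which recognise phosphatidylserine that flips to the outside of the dying cell. Gas6 and protein S (Pros1) bind this lipid with one end and a TAM receptor tyrosine kinase with the other, and MFG-E8 (Mfge8) links the same lipid to alpha-v integrins. Mertk is the TAM receptor best known for engulfment by macrophages, Axl is found on tumour cells, fibroblasts and activated myeloid cells, and TAM signalling also dampens inflammatory responses. Annexin A1 is released by stressed and dying cells and acts through the formyl peptide receptor Fpr2 of myeloid cells.

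Of the 8 genes, 1 rose and 1 fell in HTB, and 6 did not pass. Tyro3 rose by 29.4% (log2 fold change 0.37 ± 0.10, SE, n = 5 each; adjusted p = 0.0408 by the quasi-likelihood test of edgeR, with Benjamini-Hochberg adjustment over all genes tested). Fpr2 fell, with a fitted level 7.25-fold lower in HTB (log2 fold change -2.86 ± 0.77, adjusted p = 0.0378). Among all 13470 genes, 11.4% passed, 3.9% higher and 7.51% lower in HTB, so 2 of 8 is not read as a property of the set. The median log2 fold change was 0.21 over the 8 genes and 0.02 over all genes tested. The receptors and ligands of the TAM system other than Tyro3, the bridge Mfge8 and the ligand Anxa1 had fitted changes between 0.06 and 1.08, none of which passed.

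Beneath those calls the levels spanned a wide range. Expressed as CPM (counts scaled to the library total) per kilobase of exon, the scale on which different genes can be compared, Anxa1 (307 ± 31.3 in LTB, SD, n = 5) and Axl (245 ± 24.9) stood at the top, followed by Mfge8 (54.7 ± 8.86). Pros1 (12.5 ± 0.93), Tyro3 (7.67 ± 0.73), Gas6 (6.86 ± 1.92) and Fpr2 (6.56 ± 8.60) came next, and Mertk was lowest (3.10 ± 0.86). In LTB the libraries of Anxa1 (255 to 333) and Axl (202 to 265) overlapped, as did those of Tyro3 (6.74 to 8.36), Gas6 (3.97 to 8.96) and Fpr2 (1.06 to 21.8), while Mfge8 stood clear of Axl and Pros1, and Pros1 of Tyro3. The lowest pair, Fpr2 and Mertk (2.26 to 4.51), also overlapped, and without LTB replicate 1 both averaged 2.75. In HTB the order was the same for the first 4 genes, with Gas6 (14.5 ± 12.2) close to Pros1 (15.1 ± 2.58), and Fpr2 (0.90 ± 0.40, at most 1.34) was below Mertk (3.86 ± 0.79, at least 3.12) in every library. With the longest coding transcript in place of merged exons, Fpr2 (7.50) exceeded Gas6 (6.86) in LTB.

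**Figure D1:**
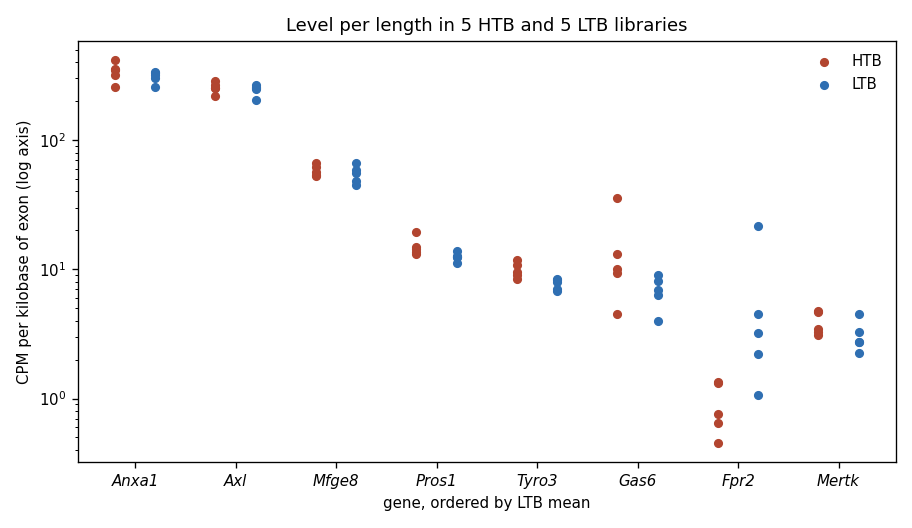
Level of each gene in CPM per kilobase of exon, on a log axis, with 1 point per library (HTB red, LTB blue) and genes ordered by their LTB mean. Anxa1 and Axl lie at 202 or more in every library, Mertk at 4.77 or less, and the LTB points of Fpr2 spread from 1.06 to 21.8.

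Among the TAM receptors, Axl made up nearly all of the receptor transcripts. Its share of the summed per-length level of Axl, Tyro3 and Mertk was 93.9% to 95.7% in HTB (median 94.8%) and 94.6% to 96.6% in LTB (median 95.9%). Tyro3 held 3.24% to 4.37% in HTB and 2.46% to 3.29% in LTB, and Mertk held 1.09% to 1.77% in HTB and 0.87% to 2.11% in LTB. All 3 shares overlapped between the groups.

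Tyro3, the TAM receptor best known from the nervous system, stood at 43.8, 40.5, 56.8, 46.2 and 52.2 CPM in HTB replicates 1 to 5 and at 34.0, 40.4, 38.5, 39.7 and 32.6 CPM in LTB replicates 1 to 5. Every HTB library was above every LTB library, though the lowest HTB value (replicate 2) and the highest LTB value (replicate 2) nearly touched. Tyro3 was the only one of the 8 genes whose groups did not overlap, a property of 11.7% of all genes tested (4.68% higher in HTB and 7.06% lower). The group means were 47.9 ± 6.56 CPM in HTB and 37.0 ± 3.52 in LTB (SD, n = 5 each). The authors' deposited table also gives Tyro3 a positive log2 fold change, 0.38, with q = 0.0103. The edgeR call was close to its threshold. It held when HTB replicate 2 was left out (adjusted p = 0.0124 by edgeR). It was lost on leaving out any other single library: the adjusted p became 0.0506 for HTB replicate 1, 0.0957 for replicate 3, 0.0786 for replicate 4 and 0.0902 for replicate 5. For LTB replicates 1 to 5 it became 0.0901, 0.0522, 0.0737, 0.0589 and 0.0889. The log2 fold change stayed between 0.30 and 0.43 over these 10 fits.

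Axl, the receptor that binds Gas6 and not protein S, was measured at 1149, 931, 1082, 1076 and 1222 CPM in HTB replicates 1 to 5 and at 867, 1111, 1073, 1063 and 1136 CPM in LTB replicates 1 to 5. The groups overlapped, with 2 HTB libraries above every LTB library, and the lowest library of each group was HTB replicate 2 and LTB replicate 1. The difference, 0.06 ± 0.09 on the log2 scale (adjusted p = 0.718), was smaller than its SE and became -0.01 without LTB replicate 1. Mertk had 13.4, 15.0, 20.5, 20.1 and 14.0 CPM in HTB replicates 1 to 5 and 19.4, 11.8, 14.0, 9.74 and 11.7 CPM in LTB replicates 1 to 5. The high LTB value of replicate 1 lay among the highest HTB values, so the groups overlapped. The change was 0.32 ± 0.20 (adjusted p = 0.309), and 0.53 ± 0.17 (adjusted p = 0.0459) when HTB replicate 2 and LTB replicate 1 were both left out.

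**Figure D2:**
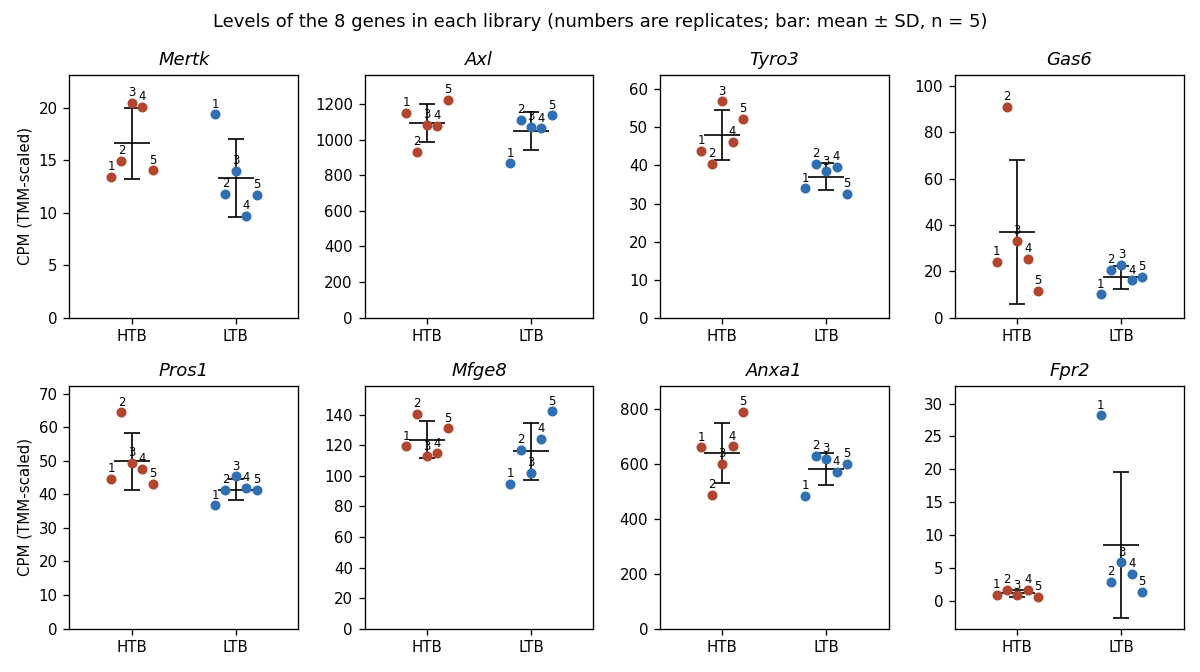
CPM of each of the 8 genes in every library, with replicate numbers beside the points and the mean ± SD (n = 5) as black bars; axes start at or below 0. HTB replicate 2 stands high for Gas6 (91.0 CPM) and Pros1 (64.4 CPM), and LTB replicate 1 for Fpr2 (28.2 CPM) and Mertk (19.4 CPM).

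Gas6, the ligand of all TAM receptors, had 24.0, 91.0, 33.2, 25.4 and 11.5 CPM in HTB replicates 1 to 5 against 10.1, 20.8, 22.8, 16.1 and 17.6 CPM in LTB replicates 1 to 5. Of the 5 HTB libraries, 4 were above every LTB library, and HTB replicate 5 lay near the bottom of the LTB range. The fitted difference was the largest positive one of the 8 genes, 1.08 ± 0.47 (adjusted p = 0.156), and did not pass. It was 0.43 ± 0.29 (adjusted p = 0.294) without HTB replicate 2 and 1.31 ± 0.41 (adjusted p = 0.0808) without HTB replicate 5. HTB replicate 2 also stood apart for markers of endothelium, skeletal muscle and adipocytes. Its 5 endothelial markers summed to 280 CPM, against 87.8 to 99.3 in the other HTB libraries and 68.2 to 113 in LTB. Its 6 skeletal muscle markers summed to 13200 CPM, against 7.36 to 48.0 in the other HTB libraries and 4.01 to 5.91 in LTB. Its 5 adipocyte markers summed to 2614 CPM, against 20.7 to 24.3 in the other HTB libraries and 10.4 to 26.2 in LTB. None of these markers was at 0 in every library. Of those tested, 3 of 4 muscle, 0 of 5 endothelial and 0 of 1 adipocyte markers rose in HTB, against 3.9% of all genes. The 3 were Acta1, Tnnt3 and Atp2a1, at 4062, 1623 and 1799 CPM in HTB replicate 2. In the other HTB libraries they had at most 22.15, 12.4 and 3.95 CPM. By the alternative test limma voom none of the 3 passed (adjusted p = 0.508, 0.431 and 0.522). The 7 fibroblast markers, none of which passed, summed to 7115 CPM in HTB replicate 2, against 7652 to 10550 in the other HTB libraries and 5490 to 8166 in LTB. Col3a1 alone gave 4388 CPM of that sum, and the markers went different ways. Col3a1, Dcn (509 CPM) and Pdgfra (93.8 CPM) were at their lowest of HTB in that library. Col1a1 (848 CPM), Col1a2 (965 CPM), Lum (26.1 CPM) and Postn (286 CPM) were at their highest. Across the 10 libraries, as a description within groups, the mean log2 level of each list correlated with Gas6 at r = 0.85 for fibroblasts, 0.79 for endothelium, 0.81 for muscle and 0.80 for adipocytes. Without HTB replicate 2 these were 0.71, 0.22, 0.25 and 0.13, so those of endothelium, muscle and adipocytes rest on that library. The 5 epithelial markers, most of them under 1 CPM on average, stood at r = -0.70, and at -0.83 without HTB replicate 2. Macrophage, neutrophil and T cell markers stood at 0.19, -0.03 and -0.01, and at 0.19, -0.24 and -0.23 without it. Leaving out LTB replicate 1 as well gave 0.83 for macrophages and -0.84 for the epithelial markers. The part of these cell types in the Gas6 values was not tested.

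Protein S, an anticoagulant cofactor that also binds Tyro3 and Mertk, is encoded by Pros1, which had 44.7, 64.4, 49.4, 47.6 and 43.1 CPM in HTB replicates 1 to 5 and 36.7, 41.3, 45.4, 42.0 and 41.4 CPM in LTB replicates 1 to 5. HTB replicate 2 was again the highest library, and HTB replicates 1 and 5 lay inside the LTB range. The change was 0.27 ± 0.11 (adjusted p = 0.130). Leaving out HTB replicate 2 gave 0.16 ± 0.07 (adjusted p = 0.120). The same marker lists correlated with Pros1 at r = 0.73 for fibroblasts, 0.86 for endothelium, 0.86 for muscle and 0.87 for adipocytes, and at 0.42, 0.33, 0.26 and 0.32 without that library. Epithelial, macrophage, neutrophil and T cell markers stood at -0.59, 0.01, -0.05 and -0.13, and at -0.71, -0.13, -0.33 and -0.51 without it. Relative to Pros1, Gas6 stood at a per-length ratio of 0.35 to 1.83 in HTB (median 0.70) and 0.36 to 0.65 in LTB (median 0.55).

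The locus of Gas6 carries an added uncertainty. The deposited table (GRCm38) has it at 13465374 to 13494535 of chromosome 8, plus strand, whereas GENCODE and RefSeq place it on the minus strand, a disagreement found for 14.6% of the 17743 genes matched to GENCODE by symbol. Gas6 overlaps Tmem255b on the opposite strand, and since the strand setting of the counting is not given in the sources used here, their reads cannot be told apart where they overlap. Tmem255b itself was low, with its highest value, 0.91 CPM, in HTB replicate 2; the other HTB libraries had 0.07 to 0.40 and LTB 0.04 to 0.17. Mertk (chromosome 2, 128698915 to 128803162, plus strand) and Anxa1 (chromosome 19, 20373434 to 20390673, minus strand) also each overlap a non-coding gene on the opposite strand, and Mertk a small nucleolar RNA gene on its own strand. Tyro3 (chromosome 2, 119797740 to 119818104, plus), Axl (chromosome 7, 25756500 to 25788733, minus), Mfge8 (chromosome 7, 79133768 to 79149060, minus) and Pros1 (chromosome 16, 62854307 to 62929346, plus) overlap no other annotated gene. All spans cover the whole gene, exons and introns.

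The bridge Mfge8 had 120, 141, 113, 115 and 131 CPM in HTB replicates 1 to 5 and 94.9, 117, 102, 125 and 142 CPM in LTB replicates 1 to 5. The LTB range enclosed the HTB range, and the change was 0.09 ± 0.11 (adjusted p = 0.619). Anxa1 had 661, 488, 601, 665 and 791 CPM in HTB replicates 1 to 5 and 484, 631, 620, 572 and 601 CPM in LTB replicates 1 to 5. Its groups overlapped, although 3 of 5 HTB libraries were above every LTB library, with HTB replicate 2 and LTB replicate 1 lowest in their groups as for Axl, and the change was 0.14 ± 0.12 (adjusted p = 0.467).

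Fpr2, the receptor for annexin A1 and for formylated peptides of bacteria and mitochondria, was the member with the largest change and the fewest reads. It had 0.98, 1.70, 0.84, 1.74 and 0.59 CPM in HTB replicates 1 to 5, from 27, 41, 23, 48 and 16 reads, and 28.2, 2.88, 5.86, 4.16 and 1.38 CPM in LTB replicates 1 to 5, from 745, 74, 137, 109 and 31 reads. LTB replicate 1 was far above all others, and LTB replicate 5 lay inside the HTB range, so the groups overlapped, while 3 of the 5 HTB libraries were below every LTB library. Leaving out LTB replicate 1 gave -1.61 ± 0.45 (adjusted p = 0.0550 by edgeR), and leaving out HTB replicate 2 as well gave -1.78 ± 0.45 (adjusted p = 0.0198). Leaving out 1 other library also ended the call for HTB replicate 1 (adjusted p = 0.0765), replicate 3 (0.0926), replicate 4 (0.0734) and replicate 5 (0.0846) and for LTB replicate 3 (0.0621). The authors' deposited table lists a log2 fold change of -2.86 with q = 7.4e-04 for Fpr2. Per length, Anxa1 exceeded Fpr2 by 196-fold to 924-fold in HTB (median 460-fold) and by 11.7-fold to 299-fold in LTB (median 94.1-fold).

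Markers of other immune cells were compared with the Fpr2 values. The 7 neutrophil markers summed to 85.5 CPM in LTB replicate 1, to 27.6 to 31.7 in the other LTB libraries and to 20.4 to 74.7 in HTB, and none of the 5 tested rose or fell. Mmp9, which neutrophils share with other cells, made up 35% to 85.8% of these sums. Without it the sum was 55.6 CPM in LTB replicate 1, 7.79 to 13.8 in the other LTB libraries and 5.05 to 24.6 in HTB. Of these markers, Ly6g and Retnlg were under 1 CPM on average, and Ly6g stood at 0 to 0.08 CPM. Within groups, as a description over 10 libraries, the mean log2 level of the neutrophil markers correlated with Fpr2 at r = 0.92 and with Axl at r = -0.85, and at 0.69 and -0.66 without LTB replicate 1. The r with Fpr2 was 0.57 for macrophage and 0.74 for T cell markers, and 0.07 and 0.32 without LTB replicate 1. Endothelial, adipocyte, muscle, fibroblast and epithelial markers stood at 0.28, 0.19, 0.15, -0.17 and 0.06 with Fpr2. Without LTB replicate 1 these were 0.55, 0.37, 0.27, 0.21 and -0.43. Leaving out HTB replicate 2 as well gave 0.80 for endothelium, 0.72 for adipocytes, 0.67 for neutrophils and 0.27 for T cells. It gave 0.04 for macrophages, 0.01 for fibroblasts, -0.13 for muscle and -0.38 for epithelial markers. The summed CPM of 8 macrophage markers ran from 543 to 905 across HTB libraries and from 919 to 1945 across LTB libraries. LTB replicate 1 was the highest library, and 2 of 8 fell, Cd68 and Lyz2. Cd68 only just passed (adjusted p = 0.0496 by edgeR). It did not pass by limma voom (adjusted p = 0.0552) or with a replicate block in edgeR (0.0588), and passed by the DESeq2 Wald test (0.0080). Lyz2 alone ran from 227 to 364 CPM in HTB and from 494 to 1103 CPM in LTB. It gave 494 of the 919 CPM in LTB replicate 4, the lowest LTB sum, and 364 of the 905 CPM in HTB replicate 1, the highest HTB sum. Adgre1, Csf1r, Mrc1, Fcgr1, Cd14 and C1qa did not pass. The summed CPM of 5 T cell markers ran from 9.82 to 29.3 in HTB and from 31.2 to 126 in LTB, 4 of 5 fell, and LTB replicate 1 was again the highest. Macrophage and T cell sums were thus lower in HTB, as Fpr2 was. The neutrophil sum had its higher median in HTB (43.8 against 31.7 CPM), but without Mmp9 the median was 8.79 CPM in HTB and 10.5 CPM in LTB. The part of these cells in the fall of Fpr2 was not tested. Of 5 epithelial markers that a colon carcinoma line could carry, Krt8, Krt18, Krt19 and Epcam were under 1 CPM on average, and Cdh1 ran from 2.08 to 5.61 CPM (HTB) and from 5.53 to 15.4 CPM (LTB). Cdh1, one of the 2 tested, fell (log2 fold change -1.36 ± 0.35, adjusted p = 0.0332).

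**Figure D3:**
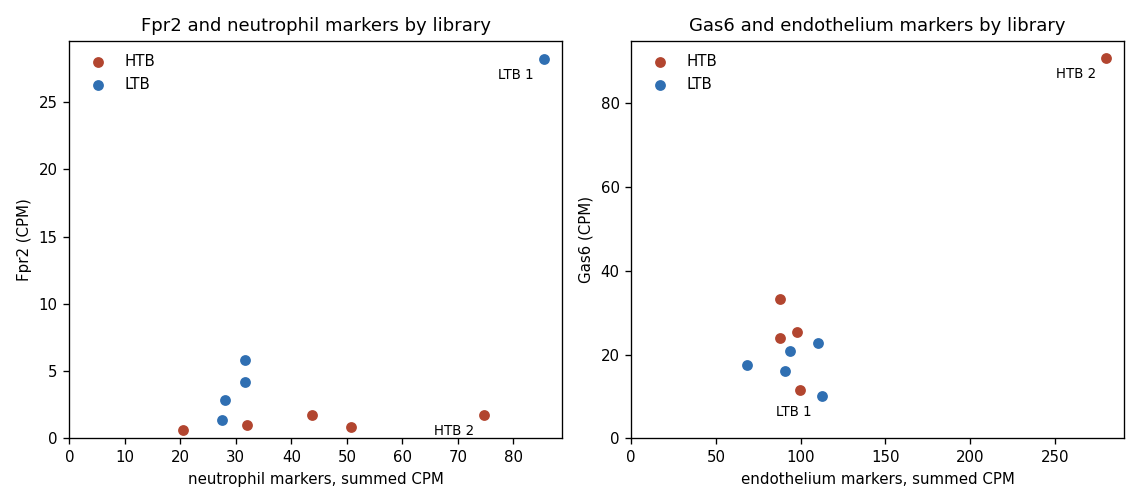
Left, Fpr2 (CPM) against the summed CPM of 7 neutrophil markers; right, Gas6 (CPM) against the summed CPM of 5 endothelial markers; 1 point per library, HTB red and LTB blue, with HTB replicate 2 and LTB replicate 1 named. LTB replicate 1 is at the top right for Fpr2 (85.5 and 28.2 CPM), HTB replicate 2 at the top right for Gas6 (280 and 91.0 CPM), and HTB replicate 2 has 1.70 CPM of Fpr2 beside a marker sum of 74.7 CPM, of which Mmp9 alone makes up 85.8%.

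Fpr1, a gene of the same family, also detects formylated peptides. Fpr1 had 7.20 CPM in LTB replicate 1, 0.31 to 1.20 in the other LTB libraries and 0.51 to 1.67 in HTB. It did not pass (log2 fold change -1.21 ± 0.79, adjusted p = 0.334), and its value was 0.25 without LTB replicate 1. Fpr2 lies at 17884881 to 17893952 of chromosome 17, plus strand, in the deposited table (GRCm38). In GENCODE it overlaps Fpr3, a paralogue on the same strand that was not analysed here, so reads of the formyl peptide receptor family could be split among its members and the Fpr2 level is uncertain to that extent.

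Because the series title names STAT3, the 250 bases before the RefSeq start of each of the 8 genes (GRCm38.p6) were searched for the STAT motif TTCNNNGAA, which reads the same on both strands. It was found before 2 of the 8 genes, Fpr2 and Pros1, and in 7.02% of 32851 such windows of the genome. The AP-1 motif TGANTCA (6.75% of windows) and the core of the HIF motif, ACGTG (16.6%), were searched on both strands and matched none of the 8, and the PU.1 motif GAGGAAG (10.6%) matched once, before Axl. The windows of Fpr2 and Pros1 are shown because they hold the STAT motif, in capitals; Fpr2 fell in HTB and Pros1 did not pass. They are written 5′ to 3′ on the plus strand, chr17:17887574-17887823 for Fpr2 and chr16:62854057-62854306 for Pros1, and in both the last base adjoins the RefSeq start. The deposited table begins Fpr2 earlier, at 17884881, so the Fpr2 window lies inside the span given there.
Fpr2: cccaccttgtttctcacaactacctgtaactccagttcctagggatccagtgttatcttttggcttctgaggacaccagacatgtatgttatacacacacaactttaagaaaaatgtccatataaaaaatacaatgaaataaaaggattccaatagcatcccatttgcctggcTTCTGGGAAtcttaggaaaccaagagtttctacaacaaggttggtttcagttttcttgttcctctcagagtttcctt
Pros1: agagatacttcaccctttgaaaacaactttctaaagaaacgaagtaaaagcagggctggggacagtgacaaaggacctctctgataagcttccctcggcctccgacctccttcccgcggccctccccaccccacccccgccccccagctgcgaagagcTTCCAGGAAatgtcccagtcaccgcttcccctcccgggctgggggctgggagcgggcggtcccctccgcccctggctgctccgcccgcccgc
The match begins 77 bases before the start in Fpr2 and 92 bases before it in Pros1. Such a match describes letters and shows neither binding nor a cause, and nothing follows for the factors whose motifs were not found in these windows.

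Within the groups, some of the 8 genes varied together across libraries. After each group's mean was subtracted from log2(CPM + 1), Gas6 and Pros1 had Pearson r = 0.95 over 10 libraries (exact permutation within groups, p = 4.9e-04, adjusted p = 0.0136 over 28 pairs) and Spearman rho = 0.88 (adjusted p = 0.0467 by the same exact test). Without HTB replicates 2 and 5, the libraries farthest out in Gas6, r was 0.91 over 8 libraries. Axl and Anxa1 had r = 0.92 (exact permutation p = 0.0024, adjusted p = 0.0227) and rho = 0.75 (adjusted p = 0.250, exact), and r = 0.79 without LTB replicate 1 and HTB replicate 2. Axl and Fpr2 varied in opposite directions, with r = -0.82 (exact permutation p = 0.0010, adjusted p = 0.0146) and rho = -0.85 (adjusted p = 0.0467, exact), and r = -0.67 without the same 2 libraries. The other 25 pairs did not pass in r or rho, among them Mertk with Axl (r = -0.57, exact permutation adjusted p = 0.392).

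Genes of the whole table with a mean of at least 1 CPM were ranked by the same within-group likeness over the 10 libraries, as a description. Nearest to Tyro3 were Draxin (r = 0.92) and Hira (0.90), to Axl Bmpr2 (0.99) and Unkl (0.98), and to Mertk Ttc9c and Acp1 (both 0.96). The ligands had Cks2 (0.99) and Nuf2 (0.98) nearest to Gas6 and Adcyap1r1 and Prex2 (both 0.97) nearest to Pros1. Mfge8 had Pgrmc2 (0.96) and Copa (0.93), Anxa1 had Abhd2 and Sestd1 (both 0.98), and Fpr2 had Rab20 (0.99) and Dnaja2 (0.98). These points share libraries and include HTB replicate 2 and LTB replicate 1, without which r ranged down to 0.82 for Adcyap1r1 with Pros1.

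**Figure D4:**
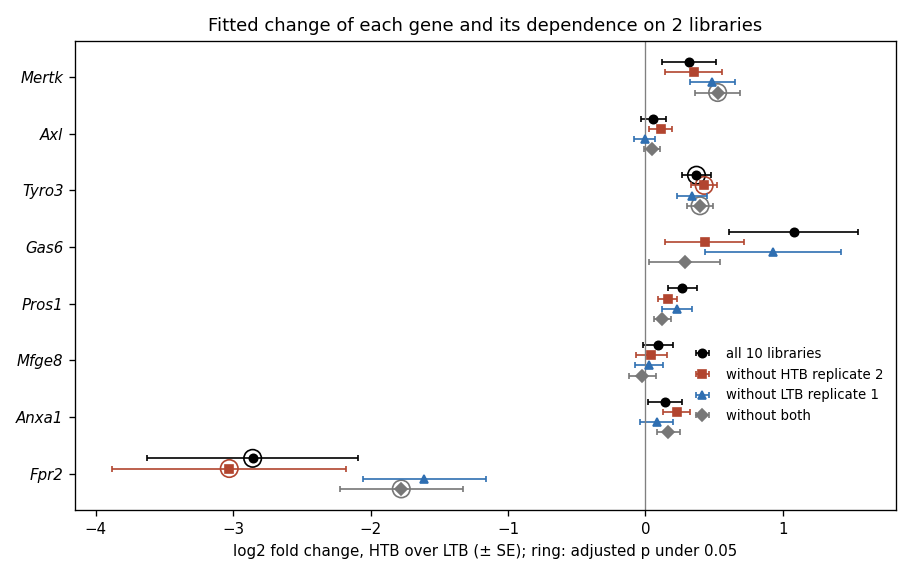
Fitted log2 fold change of each gene (HTB over LTB) with its SE, for all 10 libraries and without HTB replicate 2, LTB replicate 1 or both; rings mark an adjusted p under 0.05 (edgeR). Tyro3 stays between 0.34 and 0.43 in these 4 fits, Fpr2 moves from -2.86 to -1.61 without LTB replicate 1, and Gas6 from 1.08 to 0.43 without HTB replicate 2.

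Other genes of the engulfment pathway were taken from written lists, beside the background of 3.9% of genes higher and 7.51% lower. Of 27 engulfment receptors and bridges, 22 were tested, 7 fell, 0 rose and 15 did not pass, with a median log2 fold change of -0.38. The integrin alpha subunit genes Itgax (4.08 ± 1.72 CPM in HTB and 28.7 ± 14.1 in LTB, SD, n = 5 each; -2.81 ± 0.37, adjusted p = 0.0019) and Itgam (-1.23 ± 0.21, adjusted p = 0.0066), whose products form complement receptors with a shared beta subunit, fell. So did Cd300lf, a receptor for phosphatidylserine and ceramide (5.46 ± 1.56 against 21.2 ± 12.1 CPM; -1.96 ± 0.34, adjusted p = 0.0070). The other members that fell were Havcr2 (-1.31), which encodes TIM-3, the integrin gene Itgb3 (-1.04), Cd300lb (-1.03) and the scavenger receptor gene Olr1 (-1.76). Olr1 had only 206 reads over all 10 libraries and was close to the threshold (adjusted p = 0.0425 by edgeR). It did not pass by limma voom (adjusted p = 0.0547) or with a replicate block in edgeR (0.154), and passed by the DESeq2 Wald test (0.0130). Itgb3 encodes a partner of alpha-v in the integrin that Mfge8 engages, and neither Itgav (-0.22, adjusted p = 0.185) nor Itgb5 (-0.37, adjusted p = 0.174) passed. The complement bridges C1qa, C1qb and C1qc lay between -0.38 and -0.21 and did not pass. Timd4, Havcr1, Stab2, Adgrb1 and Megf10, which include receptors that bind phosphatidylserine directly, were too low to be tested, at 7 to 61 reads over all 10 libraries. The count that fell was 5 to 7 when single libraries were left out. Of the markers described above, 2 of 8 for macrophages (Cd68 only just) and 4 of 5 for T cells were also lower. C1qa is both a macrophage marker and a gene of this list. How the markers and the list vary together was not examined, and the part of those cells in the list was not tested.

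Of 17 genes for signals exchanged between dying cells and phagocytes, 2 fell, 0 rose and 15 did not pass, with a median of -0.19. The genes that fell were Calr, which encodes the eat-me signal calreticulin (-0.29 ± 0.08, adjusted p = 0.0373), and Cx3cl1, the find-me chemokine fractalkine (22.5 ± 11 against 46.2 ± 9.21 CPM; -1.04 ± 0.29, adjusted p = 0.0447). Sirpa, the phagocyte receptor for the do-not-eat-me signal CD47, stood at -0.37 ± 0.11 (adjusted p = 0.0613), and Cd47 at -0.30 (adjusted p = 0.0731). Without HTB replicate 2, 6 fell and 1 rose. None passed without HTB replicates 3, 4 or 5 or LTB replicates 1, 3 or 5, and 1 fell without each of the other 3 libraries.

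Of 30 genes of engulfment and digestion, a list that also holds metabolic genes such as Slc2a1 and Arg1, 1 rose, 3 fell and 26 did not pass. The median was -0.07. Gulp1, an engulfment adaptor that acts downstream of Stab2 and Lrp1, rose from 18.1 ± 4.18 to 33.2 ± 6.68 CPM (0.88 ± 0.19, adjusted p = 0.0172), although 1 HTB library, at 21.8 CPM, lay below the highest LTB library at 21.9. Slc2a1, the glucose transporter GLUT1, fell from 180 ± 34.6 to 83.7 ± 20.4 CPM (-1.10 ± 0.18, adjusted p = 0.0047), Elmo2 changed by -0.27 (adjusted p = 0.0356) and Arg1, which breaks down arginine, by -3.64 ± 0.64 (adjusted p = 0.0071). Rac1 and Dock1, the GTPase and its exchange factor that reshape the cell during engulfment, stood at 0.01 and 0.09 and did not pass. Without HTB replicate 2, 2 rose and 6 fell, and 1 rose and 2 or 3 fell without any other single library.

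Enzymes that mature Gas6 and protein S and proteases that shed TAM receptors did not pass with all 10 libraries. Ggcx, which adds the carboxyl groups that let both ligands bind phosphatidylserine, stood at 0.14 (adjusted p = 0.314) and Vkorc1, which recycles its vitamin K, at 0.07 (adjusted p = 0.659). Vkorc1l1 (0.25 ± 0.07, adjusted p = 0.0565) was higher in every HTB library, at 85.7 to 111 CPM, than in any LTB library, at 74.1 to 82.6 CPM, without passing, and it passed without HTB replicate 2 (0.18 ± 0.05, adjusted p = 0.0371), where the list then had 1 higher and 1 lower. Adam17, which sheds Mertk, stood at -0.11 ± 0.07 (adjusted p = 0.280) and Adam10 at 0.06 (adjusted p = 0.590). Of the 6 tested genes of this list 1 fell, Lgals3 (326 ± 83.9 against 660 ± 159 CPM; -1.02 ± 0.21, adjusted p = 0.0130), whose product galectin-3 also binds Mertk, and it fell without any single library.

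Annexins other than Anxa1, with the partners S100a10 and S100a11, held 1 gene that fell among 11 tested, 0 that rose and a median of -0.13. Anxa2 fell from 1483 ± 76.9 to 1252 ± 78.4 CPM (-0.24 ± 0.06, adjusted p = 0.0322), with no overlap between the groups. Anxa8 (-0.91 ± 0.33, adjusted p = 0.0998) and Anxa7 (-0.16 ± 0.07, adjusted p = 0.150) did not pass. Without HTB replicate 2, 4 fell, and none passed without HTB replicates 3, 4 or 5 or LTB replicates 3, 4 or 5. Of 5 tested receptors of the formyl peptide and resolution list, 2 fell and the median was -1.21. These were the leukotriene B4 receptor gene Ltb4r1 (0.64 ± 0.22 against 5.89 ± 3.02 CPM; -3.19 ± 0.39, adjusted p = 0.0012) and Gpr18, a receptor of leukocytes (0.48 ± 0.27 against 1.72 ± 0.60 CPM; -1.85 ± 0.44, adjusted p = 0.0239). Gpr18 had an adjusted p of 0.0592 without HTB replicate 4 and 0.0509 without LTB replicate 1, and 1 of the 5 fell in each of these fits.

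**Figure D5:**
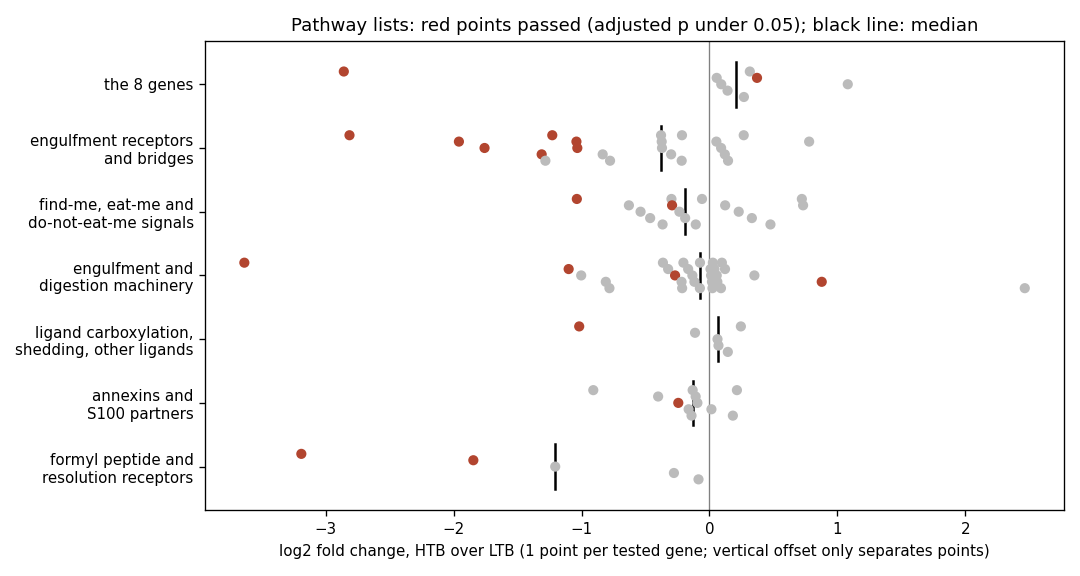
Log2 fold change (HTB over LTB) of every tested gene of the 8 genes and of 6 pathway lists; red points passed an adjusted p under 0.05, grey points did not, and black lines are list medians. The 8 genes have their median at 0.21 with Fpr2 far to the left, and 7 of the 22 tested engulfment receptors and bridges lie among the red points below 0.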

How the data were processed

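RNA was sequenced from whole tumours; per the labels, total RNA went into a SMARTer mRNA library kit, and the genome build was GRCm38 (mm10), per the submitters' processing notes. No aligner, counter or strand option is given in the sources used here. The authors deposited estimated counts per gene and library, of which 86.4% were whole within 1e-09; the rest were rounded. Totals ran from 23070917 to 27185168 reads. The deposited table also holds the authors' log2 fold change, p-value and q-value, the p-value and q-value from DESeq2 per the file headers. The 1 line without a gene was dropped.

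The test was edgeR 4.0.16 (R 4.3.3; glmQLFit, glmQLFTest) with TMM factors and filterByExpr with group as sole term over the 10 libraries, and Benjamini-Hochberg adjustment over 13470 genes at 0.05. The SE is the log2 fold change divided by the square root of F. CPM used TMM-scaled totals, and lengths came from coding transcripts of GENCODE M21. On counts simulated for HTB against LTB (13415 genes tested, 50 changed per size), recovery was 38% for 1.5-fold changes, 74% for 2-fold, 94% for 4-fold and 96% for 8-fold. Libraries of the same group all differed by more than sampling noise.

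The members, lists and rules were chosen with earlier results of these data known. Named are the 8 genes, the 3 tested genes of smallest p in each list and the 2 genes most alike each member; other list genes complete a count or were chosen after their values were seen. The T cell marker Trac and 5 of 10 genes of the formyl peptide receptor list were not analysed here. The permutation p-values of correlations were added to the planned description. Alternatives were DESeq2 (1.42.0) and upper-quartile scaling, the DESeq2 Wald test, limma voom (3.58.1), other filters, a replicate block and leaving out libraries; marker values without Mmp9 or without HTB replicate 2 or LTB replicate 1 were added after seeing the data.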

Additional observations from a re-analysis of the deposited data

Results flagged for a closer look

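In each group of 5 libraries the highest and lowest values were set against the rest, and a library was singled out where its gap to the nearest other exceeded 0.71 of the group's range. This happened in 11 of 68 groups examined. The cut singles out about 1 in 20 groups of independent, normally distributed values. The groups here share the same 10 libraries, so the count is not read against that rate. Among the 8 genes it named LTB replicate 1 for Fpr2 (28.2 CPM, next 5.86) and for Axl (867 CPM, the lowest, next 1063), and HTB replicate 2 for Gas6 (91.0 CPM, next 33.2). LTB replicate 1 also stood apart for Cd300lf (42.4 CPM, next 18.7), for Fpr1 (7.20 CPM, next 1.20), for the summed neutrophil markers (85.5 CPM, next 31.7) and for the summed T cell markers (126 CPM, next 58.1). HTB replicate 2 stood apart for Vkorc1l1 (111 CPM, next 92.8) and for the summed markers of endothelium (280 CPM, next 99.3), skeletal muscle (13200 CPM, next 48.0) and adipocytes (2614 CPM, next 24.3). All 11 involve these 2 libraries.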

How the results depend on the processing

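The count of genes that passed, 1537, became 2449 by the DESeq2 Wald test, 971 with a replicate block, 388 at an adjusted p under 0.01, 2907 without HTB replicate 2 and LTB replicate 1 together, and 739 to 3040 when single libraries were left out. The count among the 8 genes, 2, became 1 with limma voom and with no filter on low counts, 0 with a replicate block and at an adjusted p under 0.01, 3 without those 2 libraries, and 0 to 2 without single libraries. Tyro3 no longer passed with no filter (0.38, adjusted p = 0.0525) or the block (0.37, adjusted p = 0.0951), and ranged from 0.30 to 0.43 without single libraries. Fpr2 no longer passed by voom (-2.21, adjusted p = 0.120) or the block (-2.13, adjusted p = 0.0907), and ranged from -3.13 to -1.61 without single libraries. Mertk passed without the 2 libraries together (0.53). Axl (-0.01 to 0.11 without single libraries) changed sign without LTB replicate 1 (-0.0062), and Mfge8 (-0.022) without the 2 libraries together, both within their SE. Gas6, Pros1 and Anxa1 kept their direction and did not pass under any of 18 alternatives. The cause of these changes was not tested, beyond fewer samples where libraries were left out. No label used here ties same-numbered libraries to each other. Over all genes tested, their deviations from the group means correlated at -0.02 to 0.10, and 2 of 5 HTB libraries correlated best with their own number. Single genes differed: with the replicate block the SE went from 0.34 to 0.14 for the T cell marker Lck and from 0.35 to 0.14 for Cdh1. For Tyro3 it went from 0.102 to 0.109. Whether same-numbered libraries share a batch or another pairing was not tested. Fpr2 had 16 to 48 reads in HTB and 31 to 745 in LTB, with a coefficient of variation of 131% between LTB libraries.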
